A study of Mus musculus with 8 samples.

Results

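9 genes that carry or report Hedgehog signals in lung mesenchyme were followed across 8 RNA-seq libraries of mouse lung myofibroblasts. They were chosen by name, as receptors, effectors and mesenchymal targets of the pathway, and all 9 were found among the 43432 mouse Ensembl identifiers of the deposited count table. The cells came from C57BL/6 mice at postnatal day 7. The wild-type group held 4 libraries, called control 1 to 4. The 4 of the other group carry the label Fra-2 transgenic, for cells that express Fra-2 constitutively, and are called Fra-2-labelled libraries (Fra-2 1 to Fra-2 4). The labels name neither the promoter of the transgene, nor how the cells were isolated, nor whether each library is its own animal. The p-values therefore cover the spread among these 8 samples alone, and much of that spread may be technical. Fra-2 is an AP-1 transcription factor encoded by Fosl2.

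In the lung, epithelial cells secrete Hedgehog ligand and the neighbouring mesenchyme responds. Ligand binding to the receptor Ptch1 releases Smo from inhibition, and Smo signals through the primary cilium to the GLI transcription factors. Gli2 mainly activates targets, Gli3 mainly represses them, and Gli1 is itself a target that adds to activation. Ptch1 and Hhip are also induced by the signal and dampen it, and the forkhead genes Foxf1 and Foxf2 are mesenchymal targets in lung and gut.

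Total counts ran from 29926239 to 41335957 per library. Expression is given as CPM, counts scaled to a common library size. Markers of the labelled cell type were abundant, with Acta2 (2526 to 3970 CPM), Myh11 (3711 to 4748 CPM), Tgfbi (3923 to 5211 CPM) and Pdgfra (958 to 1433 CPM), while Epcam, Ptprc and Pecam1, which mark epithelium, leukocytes and endothelium, reached at most 1.74, 11.3 and 18.8 CPM. Other markers of those cells were higher, among them epithelial Sftpc at 21.8 to 101 CPM and leukocyte Lyz2 at a mean of 47.2 CPM. The summed epithelial list was 54.7 to 126 CPM in controls and 105 to 199.8 CPM in Fra-2-labelled libraries, and the summed immune list 76.9 to 112 and 89.2 to 119 CPM, with 0 markers of either called. Fosl2 itself did not separate the groups, at 105, 117, 141 and 119 CPM in controls and 166, 134, 126 and 104 CPM in Fra-2-labelled libraries (log2 fold change 0.14, standard error 0.136, adjusted p = 0.888 in edgeR), so directions are those of the labels. Xist and 4 Y-linked genes placed 2 female and 2 male libraries in each group, so each group drew on different animals. The split was less clean in 2 controls. Male control 1 had 372 Xist counts, against 15 to 27 in the other male libraries. Female control 2 had 36 Y-linked counts, against 3 to 4 in the other female libraries. The source of these counts was not tested. Of 15422 genes tested, 157 (1.02%) passed an edgeR adjusted p of 0.05, of which 111 (0.72%) were higher and 46 (0.298%) lower in Fra-2-labelled libraries, and the groups did not overlap for 5.76%.

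The 9 Hedgehog genes held similar levels in both groups, and none passed the test. In edgeR, 0 of 9 passed the adjusted threshold, against 1.02% of all genes tested, and 0 of 9 had an unadjusted p under 0.05, against 8.71% of all genes. DESeq2 and limma-voom also called 0 of 9. The groups overlapped for all 9, whereas they did not overlap for 5.76% of all genes. For a list of 9, counts of 0 lie near these shares and do not set the 9 apart. The fitted differences were small, from -0.16 (Hhip) to 0.08 (Foxf1) on the log2 scale, and their median size of 0.06 compares with 0.16 over all tested genes. The median standard error was smaller too, at 0.123 for the 9 and 0.19 over all tested genes. Sizes were not compared with those of genes of like level. The data were precise enough to bound larger changes. Over the 9 genes, the 95% intervals of the fold change lay between 0.726 (the lower bound of Gli1) and 1.42 (the upper bound of Gas1), so that a change to 2 times or to 0.5 times the control level was outside every interval. Changes smaller than these bounds were not resolved, and a p above the threshold does not show that levels were equal. Expression was read from 603 to 51798 counts per gene and library. In libraries of whole cell preparations, fewer cells of a type and less RNA per cell cannot be told apart.

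**Figure D1:**
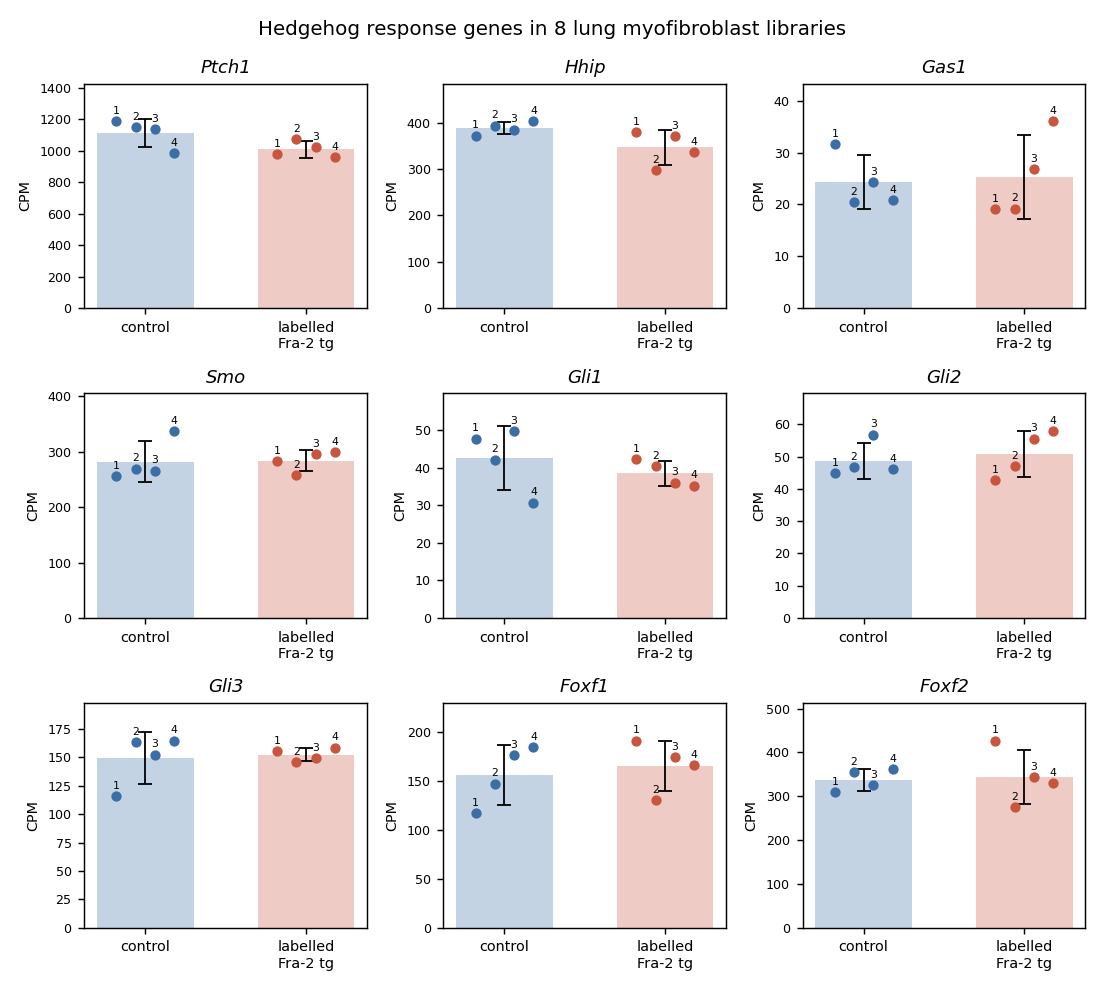
CPM (vertical axes from 0) of the 9 Hedgehog genes in control libraries (blue) and libraries labelled Fra-2 transgenic (red, "Fra-2 tg"). Points are single libraries with their replicate number, bars are means and error bars are SD (n = 4 per group). The 2 groups overlap for all 9 genes, among them Ptch1 (957 to 1189 CPM) and Gli1 (30.7 to 49.8 CPM). Of all tested genes, 5.76% had groups that did not overlap.

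Hedgehog receptors were well expressed, and the sequence upstream of their transcription starts is shown for the pair that the pathway induces as its own brakes, Ptch1 and Hhip. Beside them stand Scube1 and Scube3, the pathway genes that differed between groups (given further on). Each run is the 250 bases before the start in RefSeq on build GRCm38.p6, 5′ to 3′ on the gene's strand, and capitals mark the letters CCACCC on either strand, which form the centre of the GLI consensus GACCACCCA. The RefSeq start used for Ptch1 lies inside the gene as GENCODE M21 annotates it, so its window is upstream of an internal start, and the Scube3 window runs past the GENCODE start of that gene.
Ptch1 (chr13:63565736-63565985, minus strand): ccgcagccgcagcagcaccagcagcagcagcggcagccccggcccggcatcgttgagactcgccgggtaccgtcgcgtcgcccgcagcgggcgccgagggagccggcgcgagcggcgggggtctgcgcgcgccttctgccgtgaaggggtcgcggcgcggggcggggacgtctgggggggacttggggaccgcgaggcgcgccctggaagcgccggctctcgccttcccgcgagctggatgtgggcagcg
Hhip (chr8:80058009-80058258, minus strand): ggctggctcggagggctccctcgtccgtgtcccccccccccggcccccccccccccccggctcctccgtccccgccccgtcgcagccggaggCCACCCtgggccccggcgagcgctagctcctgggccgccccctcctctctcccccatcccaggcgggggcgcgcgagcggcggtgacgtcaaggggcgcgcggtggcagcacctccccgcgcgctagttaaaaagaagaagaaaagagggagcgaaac
Scube1 (chr15:83725040-83725289, minus strand): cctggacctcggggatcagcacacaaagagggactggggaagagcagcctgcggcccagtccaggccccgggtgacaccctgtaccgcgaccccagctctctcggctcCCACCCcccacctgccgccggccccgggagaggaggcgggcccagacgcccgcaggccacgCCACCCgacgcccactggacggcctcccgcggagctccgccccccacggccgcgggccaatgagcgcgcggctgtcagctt
Scube3 (chr17:28142059-28142308, plus strand): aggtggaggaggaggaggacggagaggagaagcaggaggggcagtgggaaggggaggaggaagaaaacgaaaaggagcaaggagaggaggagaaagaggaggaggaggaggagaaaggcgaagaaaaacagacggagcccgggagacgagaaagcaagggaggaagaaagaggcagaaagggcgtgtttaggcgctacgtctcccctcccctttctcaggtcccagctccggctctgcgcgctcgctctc
RefSeq windows were matched for 7 of the 9 genes (Ptch1, Hhip, Gas1, Smo, Gli2, Gli3 and Foxf2). They were rich in G and C, from 58.8% to 78.4%, against a median of 52.4% over all 32851 windows of the same length. The full GACCACCCA, on either strand, was in 0 of the 7 windows and in 0.225% of all windows. The AP-1 motif TGANTCA, also searched on both strands, was in 0 of the 7 and in 6.75% of all windows. Neither motif was in the windows of Scube1 and Scube3. The 6-letter centre CCACCC, part of the full GLI motif, was in 5 of the 7 windows and in 28.1% of all windows. All windows were not matched to the 7 for G and C, so these shares are not a like comparison for such letters. The window of Gli3, among those with CCACCC, lies inside the gene as GENCODE M21 annotates it. These are letter matches in short windows and say nothing of factor binding. Scube1 holds CCACCC at positions -142 and -81 and Hhip at -158, counted back from the start.

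Ptch1, the receptor that binds Hedgehog ligand and restrains Smo, was the most abundant of the 9 genes by counts (ENSMUSG00000021466, chromosome 13, 63508328 to 63573598 in GRCm38). It measured 1189, 1150.05, 1136 and 987 CPM in control 1 to control 4 and 978, 1074, 1024 and 957 CPM in Fra-2 1 to Fra-2 4. Controls 1 to 3 lay above every Fra-2-labelled library and control 4 lay among them. The means were 1115 ± 88.6 and 1008 ± 52.0 CPM (SD, n = 4), a log2 fold change of -0.15 (standard error 0.094, adjusted p = 0.766 in edgeR). Its interval ran from 0.786 to 1.04 times the control level.

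Hhip encodes a membrane-bound decoy that sequesters Hedgehog ligand and is a marker of lung myofibroblasts (ENSMUSG00000064325, chromosome 8, 79965851 to 80058006). Controls measured 371.8, 393, 385 and 403 CPM and Fra-2-labelled libraries 380.1, 298, 371.6 and 336 CPM. Fra-2 2 and Fra-2 4 lay below all controls, Fra-2 3 lay just under the lowest control, and Fra-2 1 lay among the controls. The means were 388 ± 13.4 and 346 ± 37.6 CPM (log2 fold change -0.16, standard error 0.0992, adjusted p = 0.727 in edgeR). This was the smallest adjusted p of the 9.

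Gas1, a membrane-anchored co-receptor that helps cells respond to low ligand, held the lowest single count of the 9, 603 in Fra-2 2 (ENSMUSG00000052957, chromosome 13, 60174405 to 60177365). Its controls measured 31.7, 20.5, 24.4 and 20.8 CPM and its Fra-2-labelled libraries 19.1, 19.2, 26.8 and 36.1 CPM. Both groups held a high library, control 1 and Fra-2 4. With a log2 fold change of 0.06 (standard error 0.209, adjusted p = 0.98 in edgeR), its interval of 0.762 to 1.42 was the widest of the 9. It shares 589 exon bases with Gm48488 on the other strand, and no step of the protocol marks strand. Gm48488 is absent from the count table, so its reads cannot be seen apart.

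Smo, the membrane protein that passes the signal into the cell, had nearly equal group means (ENSMUSG00000001761, chromosome 6, 29735503 to 29761365). It measured 256, 269, 266 and 337 CPM in controls and 283, 257, 296 and 299 CPM in Fra-2-labelled libraries. Control 4 stood above the other 7. The means were 282 ± 37.4 and 284 ± 19.1 CPM (log2 fold change 0.01, standard error 0.108, adjusted p = 0.993 in edgeR), with an interval of 0.857 to 1.18.

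Gli1, the effector most often read as output of the pathway, ranged widely within the control group (ENSMUSG00000025407, chromosome 10, 127329882 to 127341974). It measured 47.7, 42.1, 49.8 and 30.7 CPM in controls and 42.2, 40.3, 36.0 and 35.2 CPM in Fra-2-labelled libraries. The highest and the lowest of the 8 values were both controls, numbers 3 and 4. The means were 42.6 ± 8.57 and 38.4 ± 3.38 CPM (log2 fold change -0.15, standard error 0.147, adjusted p = 0.888 in edgeR). Gli1 shares 62 exon bases at its end with Arhgap9 on the opposite strand, which held 0.158 to 1.76 CPM. It shares 265 with the antisense gene Gm47200, which is also absent from the count table.

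Gli2, the main activator, measured 44.8, 46.6, 56.8 and 46.2 CPM in controls and 42.7, 47.0, 55.6 and 58.0 CPM in Fra-2-labelled libraries (ENSMUSG00000048402, chromosome 1, 118834132 to 119053619). Control 3, Fra-2 3 and Fra-2 4 formed the upper values and the groups overlapped throughout (log2 fold change 0.06, standard error 0.127, adjusted p = 0.954 in edgeR). Gli3, the main repressor, measured 116, 163, 152 and 165 CPM in controls and 156, 146, 149 and 159 CPM in Fra-2-labelled libraries (ENSMUSG00000021318, chromosome 13, 15463235 to 15730026). Control 1 was the low library, and the other 7 lay within 146 to 165 CPM. The means were 149 ± 22.9 and 152 ± 5.79 CPM (log2 fold change 0.03, standard error 0.114, adjusted p = 0.979 in edgeR). Without control 1 the log2 fold change of Gli3 was -0.07 (edgeR adjusted p = 0.976). Gli3 shares 188 exon bases with Gm6556 on the opposite strand, which held 0.764 to 2.99 CPM. Hhip (175 bases), Foxf1 and Foxf2 (98 bases each) overlap small RNA genes on the opposite strand.

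Foxf1 encodes a forkhead factor needed for lung mesenchyme and its vessels (ENSMUSG00000042812, chromosome 8, 121084386 to 121088144). It measured 117, 147, 176 and 185 CPM in controls and 191, 131, 174 and 166 CPM in Fra-2-labelled libraries. Control 1 and Fra-2 2 were the low libraries of their groups. The means were 156 ± 30.8 and 166 ± 25.6 CPM (log2 fold change 0.08, standard error 0.148, adjusted p = 0.949 in edgeR), and without control 1 the log2 fold change was -0.03 (edgeR adjusted p = 0.991). Lung endothelium also expresses Foxf1, and the summed level of 8 endothelial markers was 54.7 to 80.7 CPM in controls and 74.5 to 92.6 CPM in Fra-2-labelled libraries, with 0 of 8 called. None of those 8 markers was at 0 in all libraries, and their part in the Foxf1 level was not tested.

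Foxf2, the related forkhead gene, measured 309, 355, 325 and 361 CPM in controls and 427, 276, 344 and 329.9 CPM in Fra-2-labelled libraries (ENSMUSG00000038402, chromosome 13, 31625816 to 31631403). The highest and the lowest value of the 8 both fell in the Fra-2-labelled group. The means were 338 ± 25.0 and 344 ± 62.3 CPM (log2 fold change 0.03, standard error 0.123, adjusted p = 0.983 in edgeR). Without Fra-2 1 the log2 fold change was -0.09 (edgeR adjusted p = 0.985).

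Levels were compared between genes as CPM per kilobase of annotated exon, averaged over the 8 libraries. On this scale Foxf2 stood highest at 144 ± 18.7 CPM per kb (SD, n = 8), above 99.0% of tested genes. Ptch1 (74.9 ± 6.22), Foxf1 (66.6 ± 11.04), Smo (50.3 ± 4.90) and Hhip (40.5 ± 3.79 CPM per kb) followed, all above 94.9% or more of tested genes. Foxf2 exceeded Ptch1 in every library, whereas Ptch1 exceeded Foxf1 in 4 of 8 and their ranges overlapped. Smo was above Hhip in 8 of 8 libraries, with ranges that just failed to meet (45.5 CPM per kb for the lowest Smo and 44.5 for the highest Hhip). The GLI genes were lower. Gli3 reached 15.7 ± 1.62 CPM per kb, above Gli1 (8.11 ± 1.29) and Gli2 (7.24 ± 0.878), and Gas1 stood at 8.38 ± 2.12 CPM per kb. The ranges of Gas1, Gli1 and Gli2 overlapped, and neighbours in that order exchanged places between libraries. The Ptch1 annotation joins alternative exons into 14185 bases, which lowers its value per kilobase where not all are used.

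**Figure D2:**
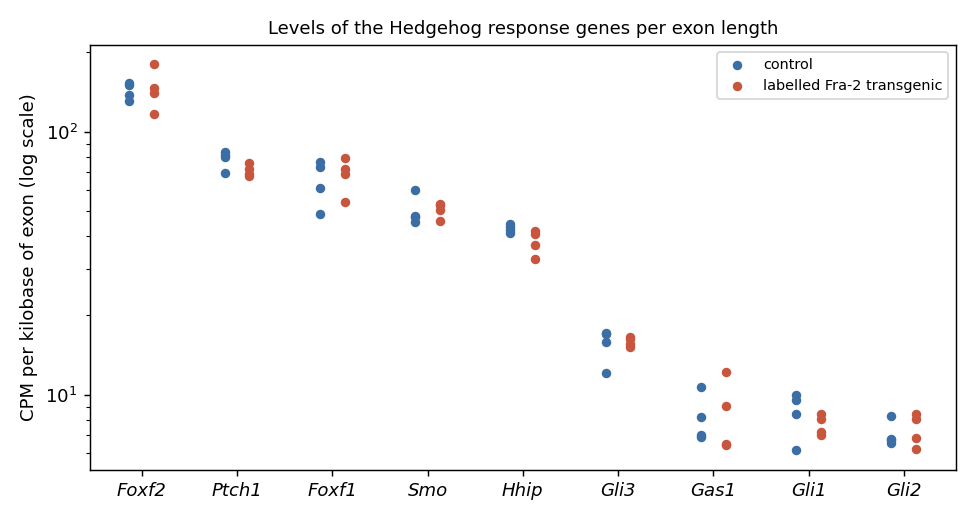
CPM per kilobase of exon (log axis) of the 9 genes, ordered by their mean, with 1 point per library, control in blue and labelled Fra-2 transgenic in red. Foxf2 lies highest, at a mean of 144 CPM per kb, and Gas1, Gli1 and Gli2 form an overlapping low group at means of 7.24 to 8.38 CPM per kb.

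For most of the 9, libraries varied little. The coefficient of variation over all 8 libraries was 8.31% for Ptch1, 9.37% for Hhip, 9.73% for Smo and 10.3% for Gli3, against a median of 19.6% over tested genes. 8 of the 9 genes lay under that median, and Gas1 was above it at 25.3%. The median covers genes of every level, whereas each of the 9 stood above 70.4% or more of tested genes per kilobase. Their spread was not compared with that of genes of like level.

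Gli1 and Ptch1 are both direct outputs of GLI activity, so Gli1 was compared across libraries with each of the other 8 genes (log2 CPM, n = 8 libraries, exact permutation tests, two-sided, adjusted over the 8 pairs). Ptch1 was the closest in the positive direction (Pearson r = 0.761, exact permutation p = 0.0317, adjusted p = 0.127; Spearman rho = 0.619, exact permutation p = 0.115), which did not pass. Leaving out control 3 and control 4, the libraries farthest from the Gli1 median, gave r = 0.752. For Hhip, the other feedback gene, no relation was detected (r = 0.01, exact permutation p = 0.981, adjusted p = 0.981; rho = 0.0952, exact permutation p = 0.84). The strongest relation was with Smo, in the opposite direction (r = -0.88, exact permutation p = 0.0033, adjusted p = 0.0264; rho = -0.79, exact permutation p = 0.0279, adjusted p = 0.223). The libraries low in Gli1 (control 4, Fra-2 3 and Fra-2 4) were the 3 highest in Smo. The size of r changed little when libraries were left out, but the adjusted p did not stay past the threshold. Without control 3 and control 4 it was r = -0.82 (exact permutation p = 0.0528, adjusted p = 0.211), and with each value taken as a deviation from its group mean it was r = -0.90 (exact permutation p = 0.0208 within groups, adjusted p = 0.167). With 1 library left out r ran from -0.77 to -0.95, and the call was lost without control 1, control 2, control 4, Fra-2 3 or Fra-2 4. Each sex held 4 libraries, too few for a correlation within it. Fendrr, the noncoding RNA gene beside Foxf1 and named outside the rule given below, was also low in control 4, Fra-2 3 and Fra-2 4. It measured 160.5, 102, 78.9 and 57.5 CPM in controls and 112, 142, 68.1 and 46.3 CPM in Fra-2-labelled libraries. The share of counts on noncoding nuclear genes was lowest in Fra-2 4 (0.591%) and control 4 (0.655%) and highest in control 2 (1.47%). Fra-2 3 (0.77%) was close to Fra-2 1 (0.779%). The mitochondrial share ran from 3.77% (Fra-2 1) to 10.5% (control 2) and was 5.22%, 6.26% and 5.43% in control 4, Fra-2 3 and Fra-2 4. The part of such library differences in these correlations was not tested. For the 5 other genes the adjusted p ran from 0.494 to 0.981.

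**Figure D3:**
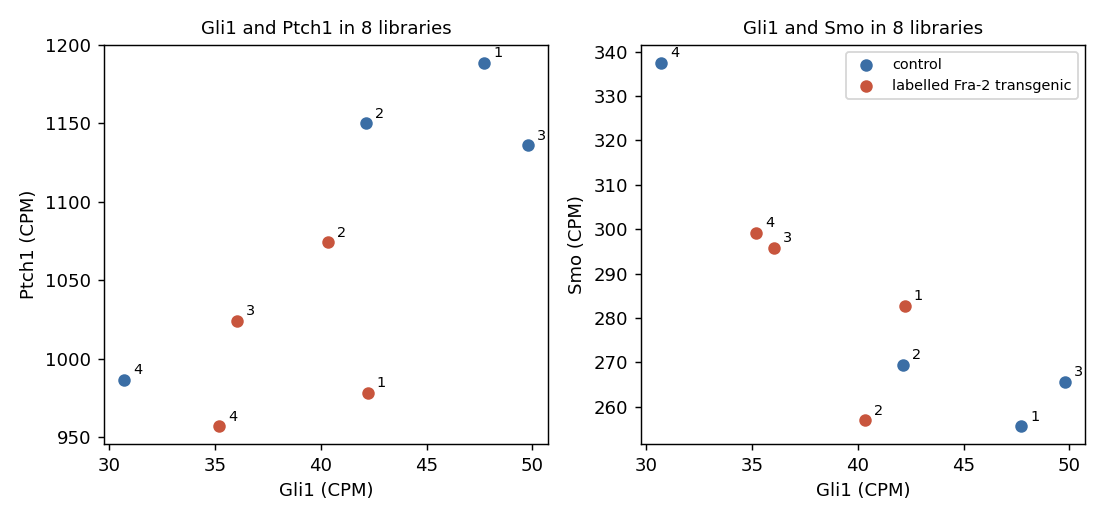
Gli1 (horizontal axis, CPM) against Ptch1 and against Smo (vertical axes, CPM, not starting at 0) in 8 libraries, numbered by replicate, control in blue and labelled Fra-2 transgenic in red. Ptch1 is higher and Smo lower where Gli1 is higher (r = 0.761 and r = -0.88), with control 4 at the low end of Gli1 (30.7 CPM).

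With 15422 genes tested over only 8 libraries, the genes whose levels followed each member most closely are given as a description. By Pearson r of log2 CPM over the 8 libraries, the nearest protein-coding genes were Afdn (0.958) and Pibf1 (0.952) for Gli1, and Atg16l1 (0.984) and Ankrd26 (0.979) for Ptch1. They were Ndst3 (0.973) and Yars (0.972) for Hhip, Tmem70 (0.968) and Eif2a (0.966) for Gas1, and Cpt1a (0.98) and Cops6 (0.9752) for Smo. For the other GLI genes they were Tubgcp3 (0.983) and Ddhd1 (0.965) for Gli2, and Was (0.966) and Dcakd (0.963) for Gli3. Foxf1 was nearest to Scn3a (0.976) and Mrc1 (0.97), and Foxf2 to Vwa8 (0.981) and Trim37 (0.98). No member was among the nearest 2 genes of another member. None of these 18 genes passed the group comparison.

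The wider pathway was read from a list of 54 further Hedgehog genes, of which 50 were tested. 2 rose (4%, against 1.02% of all genes tested), 0 fell and 48 did not pass, and the median log2 fold change was 0.08, against -0.01 over all genes. The groups did not overlap for 3 of the 50 (6%, against 5.76% of all genes). The list was written with earlier results of these data known, so these shares describe it and do not test it. The pair that rose were Scube1 and Scube3, which encode secreted proteins with EGF and CUB domains that help release lipid-modified Hedgehog ligand from the cells that make it.

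Scube1 measured 118, 80.0, 107 and 92.7 CPM in controls and 142, 182, 193 and 171 CPM in Fra-2-labelled libraries (ENSMUSG00000016763, chromosome 15, 83604999 to 83725021). Every Fra-2-labelled library lay above every control. The means were 99.4 ± 16.6 and 172 ± 21.8 CPM, a log2 fold change of 0.79 (standard error 0.131, adjusted p = 0.00818 in edgeR). The call held without each library in turn, with adjusted p of 0.00447 to 0.0372.

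Scube3 measured 19.0, 20.7, 23.6 and 26.3 CPM in controls and 35.5, 34.4, 49.0 and 37.5 CPM in Fra-2-labelled libraries (ENSMUSG00000038677, chromosome 17, 28142141 to 28174854). These values also did not overlap. The means were 22.4 ± 3.22 and 39.1 ± 6.73 CPM (log2 fold change 0.81, standard error 0.149, adjusted p = 0.0168 in edgeR). Leaving out control 2 raised its edgeR adjusted p to 0.0743, leaving out control 3 to 0.0503, and leaving out Fra-2 3 to 0.0697. Scube2, the third family member, measured 61.1 ± 9.92 and 64.7 ± 8.25 CPM (log2 fold change 0.08, edgeR adjusted p = 0.94). Taken alone, the female libraries gave 0.85 for Scube1 and 0.94 for Scube3 (edgeR unadjusted p = 0.000332 and 0.000218, adjusted p = 0.0369 and 0.0284). The male libraries alone gave 0.74 and 0.67 (edgeR unadjusted p = 0.00697 and 0.0264, adjusted p = 0.9998 for both). The difference between sexes did not pass for either (edgeR adjusted p = 0.99996 for both). Summed levels of mesenchymal marker lists went in different directions beside these genes, and single abundant genes made up much of some sums. The summed level of 7 lipofibroblast markers was 146 to 284 CPM in controls and 313 to 431 CPM in Fra-2-labelled libraries. Most of it came from Npnt (110 ± 39.1 and 193 ± 26.1 CPM, edgeR adjusted p = 0.209) and Limch1 (67.4 ± 15.5 and 113 ± 24.2 CPM, edgeR adjusted p = 0.0764). Without these genes the groups overlapped in the sum of the others. The summed level of 8 adventitial fibroblast markers was 1109 to 1257 CPM in controls and 1355 to 1511 CPM in Fra-2-labelled libraries. That of 7 pericyte markers was 1722 to 2046 CPM in controls and 1442 to 1743 CPM in Fra-2-labelled libraries, and these ranges overlapped. Its most abundant gene Rgs5 was lower with no overlap between groups, at 1391 ± 95.7 and 1025 ± 141 CPM (log2 fold change -0.44, edgeR adjusted p = 0.092). The rest of that list, summed without Rgs5, was higher in every Fra-2-labelled library than in any control. The summed level of 10 myofibroblast markers was 17312.5 to 19109 CPM in controls and 17275 to 19328 CPM in Fra-2-labelled libraries. Within this list Stc1 rose (log2 fold change 0.56, edgeR adjusted p = 0.0302) and Enpp2 fell (log2 fold change -0.60, edgeR adjusted p = 0.0447). None of the lipofibroblast or pericyte markers and 2 of the adventitial ones (Serpinf1 and Dcn, both higher) were called, and no marker of these 4 lists was at 0 in all libraries. Their part in the Scube differences was not tested.

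The ligands themselves were scarce. Ihh had 0 counts in all 8 libraries, which at 3 counts over all libraries allows up to 0.0107 CPM, and Shh had 54 counts in all, at 0 to 0.424 CPM. Dhh measured 0.459 to 1.65 CPM in controls and 0.371 to 2.45 CPM in Fra-2-labelled libraries. These floors cover counting error only.

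Among other receptors and co-receptors, 0 of 5 passed, against 1.02% of all genes tested. For this class and those that follow, counts of 0 lie near that share. The log2 fold changes of the 5 were all above 0, from 0.17 to 1.06, the highest from a gene at 0.161 to 2.15 CPM. Gpc3, a glypican that competes with Ptch1 for ligand, measured 125, 232, 258 and 295 CPM in controls and 342.5, 253, 374 and 306 CPM in Fra-2-labelled libraries (log2 fold change 0.49, standard error 0.224, adjusted p = 0.58 in edgeR), with control 1 far below the rest. Gpc3 was called in the female libraries alone (log2 fold change 0.55, edgeR adjusted p = 0.0373) and not in the male ones. The difference between sexes did not pass (edgeR adjusted p = 0.99996). The co-receptor Boc measured 107 ± 15.2 and 120.0 ± 3.82 CPM (edgeR adjusted p = 0.768). Of 14 genes of Smo control and cilium machinery 0 passed, with log2 fold changes of -0.28 to 0.45. Kif3a, a motor subunit needed to build cilia, measured 121 ± 19.0 and 114 ± 9.90 CPM, and the ciliary receptor Gpr161, which holds the pathway off, 85.1 ± 4.45 and 84.1 ± 11.5 CPM. Of 11 regulators of GLI proteins 0 passed, with log2 fold changes of -0.12 to 0.28. The highest per kilobase were Spop, an adaptor for GLI degradation (330 ± 59.0 and 336 ± 33.5 CPM), and the kinase gene Gsk3b (910.0 ± 162 and 905 ± 78.9 CPM).

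Of 14 tested further mesenchymal targets 0 passed, against 1.02% of all genes tested. Wnt5a, a secreted Wnt ligand, measured 1227 ± 121 and 1472 ± 164 CPM (log2 fold change 0.26, edgeR adjusted p = 0.476), and Bmp4 532 ± 77.4 and 516 ± 160 CPM (log2 fold change -0.04, edgeR adjusted p = 0.983). The repressor gene Snai1, named after its values were seen, was the third gene whose groups did not overlap, at 7.97 ± 0.961 and 11.7 ± 0.741 CPM. Its log2 fold change was 0.55 (standard error 0.154, adjusted p = 0.149 in edgeR), and DESeq2 called it (DESeq2 adjusted p = 0.0249).

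**Figure D4:**
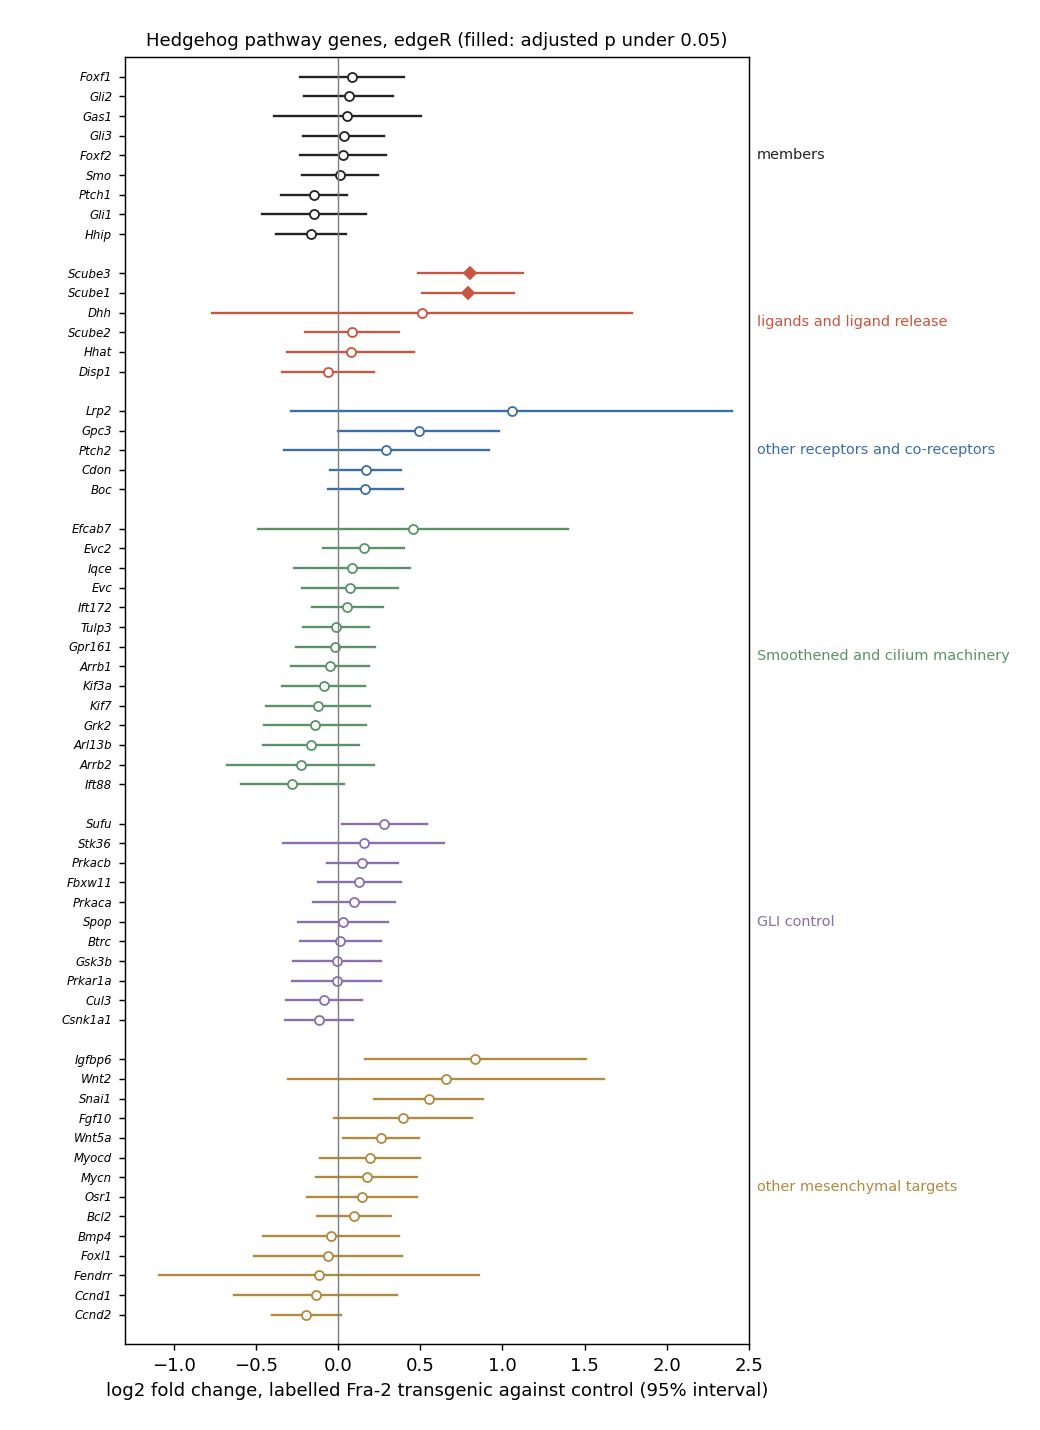
Log2 fold change of Fra-2-labelled against control libraries (horizontal axis, 95% interval as a line) for the 9 Hedgehog genes ("members", black) and 50 further pathway genes by class, from edgeR. Filled diamonds passed an adjusted p of 0.05: Scube3 (0.81) and Scube1 (0.79), while the 9 members lie between -0.16 and 0.08.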

How the data were processed

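RNA was sequenced from 4 control and 4 Fra-2-labelled libraries. Per the labels' protocols, mRNA selected from 50 ng of total RNA was amplified (NuGEN Ovation RNA-Seq System V2) and made into Nextera XT libraries. Amplification adds spread, and no step marks strand. The authors deposited raw counts per mouse Ensembl gene. The submitters' processing notes name the human build GRCh38. For aligner, counter and annotation, nothing is given in the sources used here. Symbols (42548 of 43432 identifiers), exon lengths and coordinates are from GENCODE M21 (GRCm38).

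Counts were fitted in edgeR 4.0.16 (R 4.3.3; filterByExpr with minimum count 10 and minimum total 15, TMM, robust quasi-likelihood F-test, two-sided, Benjamini-Hochberg over 15422 genes at 0.05). CPM use TMM-scaled library sizes, log2 CPM a prior count of 2. SE is the absolute log2 fold change over the square root of F. Alternatives included DESeq2 1.42.0 and limma-voom (limma 3.58.1). Library pairs within a group differed beyond sampling noise (chi-square per gene 39.7 to 175). The procedure was tested on counts simulated with the dispersions fitted to these data, with 50 genes changed at each size. It recovered 46% of 1.5-fold changes, 76% of 2-fold changes and 96% of 4-fold and of 8-fold changes. Of its 172 calls, 15 were false. The members and lists were chosen with earlier results of these data known. Named were all 9 members, called pathway genes, the 2 highest per kilobase in each class, the 2 genes most like each member, and Fosl2. Fendrr and Snai1 are named outside this rule. Marker genes serve as checks. A fit by sex was added after seeing the data.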

Additional observations from a re-analysis of the deposited data

Results flagged for a closer look

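Among 21 genes checked in both groups (42 sets of 4 libraries), 2 values stood apart from the other 3 libraries of their group by more than Dixon's 95% critical share of the group's range, and chance alone gives this in about 1 set in 20. Gli2 in control 3 was 56.8 CPM, against 44.8 to 46.6 CPM in the other controls. Smo in control 4 was 337 CPM, against 256 to 269 CPM in the other controls. Control 4 also held the lowest Gli1 (30.7 CPM).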

How the results depend on the processing

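Under the alternatives run (3 other scalings, 2 other filters on low counts, DESeq2, limma-voom, no robust dispersion, the block, an adjusted p of 0.10, sex as a covariate and each library left out), 0 of 9 Hedgehog genes was called. Over the 180 values of the 9 genes under alternatives, each sex alone included, the log2 fold change ran from -0.29 to 0.21 and the lowest adjusted p was 0.419. Ptch1, Hhip and Gli1 stayed below 0 in all of theirs. The sign changed in 19 of the 180, in the other 6 genes. Smo was -0.000541 under total-count scaling. In the male libraries alone, Smo was -0.091, Foxf1 -0.021 and Foxf2 -0.14, and in the female libraries alone Gli2 was -0.068 and Gli3 -0.046. With 1 library left out, the ranges were -0.17 to 0.21 for Gas1, -0.033 to 0.11 for Smo, -0.00503 to 0.15 for Gli2, -0.069 to 0.086 for Gli3, -0.0299 to 0.18 for Foxf1 and -0.088 to 0.12 for Foxf2. Calls over all genes numbered 369 in DESeq2 and 76 to 205 with 1 library left out, and calls among the pathway genes 1 to 2 with 1 library left out (1 without control 2, control 3 or Fra-2 3, where Scube3 was lost). Pairs with Gli1 past the threshold numbered 1, but 0 without the 2 libraries farthest from its median, 0 as deviations from the group means, and 0 to 2 with 1 library left out. The 2 without Fra-2 1 included Ptch1 (r = 0.887, adjusted exact permutation p = 0.0452). The Gli1 correlation of Hhip was -0.24 as deviations from the group means and -0.12 to 0.40 with 1 library left out, that of Gas1 was -0.25 without the 2 farthest and -0.23 to 0.33 with 1 left out, and that of Gli2 was -0.876 without the 2 farthest and -0.48 to 0.10 with 1 left out. The cause was not tested. With replicate number as a block, 190 genes passed over all genes (157 without it), 0 members and 2 pathway genes. Same-numbered libraries correlated by 0.00177 to 0.31, over 0.1 in 2 of 4 pairs, and 5 of 8 libraries correlated best with their own number. The labels state no pairing, so the main fit did not take the numbers as pairs. What same-numbered libraries may share was not tested. A sex-by-group term passed for 0 members in edgeR (adjusted p = 0.99996 for each, and 0 at an unadjusted p under 0.05).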
